A study of Mus musculus with 6 samples.

Results

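The genes described here carry provisional symbols, either Gm followed by digits or a clone name that ends in Rik, and were listed in the gene count table of one cell type and missing from that of the other. Such symbols mark mouse genes found by gene prediction or cDNA cloning before a function was known. Many of them are long noncoding RNAs (lncRNAs), transcripts without a long reading frame that often start beside, or run antisense to, a protein-coding gene. Some lncRNAs carry microRNAs (miRNAs), short RNAs cut from the transcript that pair with target mRNAs through a seed near their 5′ end, and others are known for expression in narrow windows of development. Members were selected on the row sum, the estimated count of a gene added over the 3 libraries of its table, which had to be 30 or more, and on absence from the other table, which meant a row sum under 10 there. This gave 52 genes of the mESC table and 125 of the CPCC table, 177 of the 16279 genes in either table.

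The mESCs were male F1 embryonic stem cells with a C57BL/6J mother (C57BL/6 in the labels) and a CAST/EiJ father, kept in 2i and LIF without feeder cells after their derivation on feeders. They came from 3 blastocysts. The CPCCs, or cardiac precursor cell cultures, were grown from these clones through embryoid bodies and ascorbic acid, followed by medium with EGF and Fgf2. They are a mixture of cell types, so fewer cells of a type and less RNA per cell cannot be told apart. Both groups are male and carry the same cross, and n = 3 libraries per group, named S01 to S03 for mESCs and S04 to S06 for CPCCs as in the deposited columns.

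Depth ranged from 6442639 to 6907330 counts per mESC library and from 8468819 to 11436062 per CPCC library, so a row sum of 30 is a lower level in CPCCs. Levels are given as CPM, the count scaled to 1000000 per library, with library sizes over the genes of both tables and TMM factors. The 10 pluripotency markers summed to between 6664 and 6808 CPM in mESCs and between 183.4 and 430.3 CPM in CPCCs. Of 10 cardiac precursor markers the CPCC table listed 9, with a sum between 198.3 and 339.3 CPM and *Tbx5* missing, and 8 mesenchymal markers summed to between 6079 and 9349 CPM there, against between 9.89 and 17.3 CPM in mESCs. Neural markers reached between 566.8 and 593.1 CPM in CPCCs and between 41.9 and 47.8 CPM in mESCs. Their part in the results below was not tested. Within the CPCCs, S04 stood apart: the chi-square per degree of freedom over genes was 51.0 against S05 and 70.2 against S06, compared with 13.7 between S05 and S06. Within the mESCs, S03 stood apart, with 14.1 against S01 and 17.6 against S02, compared with 4.90 between S01 and S02.

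Members of the CPCC table include hosts of miRNAs. A mature miRNA lay inside the span and on the strand of 7 of the 125 CPCC members (5.60%) and of 0 of the 52 mESC members, compared with 3.34% of all listed genes. The libraries were made from polyadenylated RNA, so the levels given here are those of the host transcripts and the miRNAs themselves were not measured. The sequences below, from RefSeq on GRCm38.p6, are shown because they group the hosts by what they encode, and capitals mark the seed, bases 2 to 8.
miR-100-5p: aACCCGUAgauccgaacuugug
let-7a-2-3p: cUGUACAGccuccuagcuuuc
miR-125b-5p: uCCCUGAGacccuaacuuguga
miR-351-5p: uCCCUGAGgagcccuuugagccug
miR-322-5p: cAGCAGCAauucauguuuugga
miR-503-5p: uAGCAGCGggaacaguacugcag
miR-29b-3p: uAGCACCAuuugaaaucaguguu
miR-29c-3p: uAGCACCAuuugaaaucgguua
miR-344d-3p: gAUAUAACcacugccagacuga
miR-344e-3p: gAUAUAACcaaagccugacuau
The first 3 belong to *3110039I08Rik*, the next 3 to *C430049B03Rik*, the miR-29 pair to *A330023F24Rik* and the last pair to *A230057D06Rik*. miR-125b-5p and miR-351-5p lie on different hosts and different chromosomes and shared the seed CCCUGAG. The 2 miR-29 sequences shared AGCACCA, and the 2 miR-344 sequences shared AUAUAAC. miR-322-5p and miR-503-5p have the seeds AGCAGCA and AGCAGCG.

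*3110039I08Rik*, now named *Mir100hg* and known as the host of the miR-100, let-7a-2 and miR-125b-1 cluster, was the most abundant CPCC member. On chromosome 9 (GRCm38, chr9:41376526-41615184 as the table gives it), it had 247, 153.8 and 176.0 CPM in S04, S05 and S06. Its mean of 192.1 ± 48.4 CPM (SD, n = 3) was at least 429-fold higher than 3 counts per mESC library, and it held 32.1% of all CPCC member counts. All 3 libraries were high, with S04 the highest. Per kilobase of exon it stood at 8.04 CPM.

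*C430049B03Rik*, the host of the miR-322, miR-503 and miR-351 cluster on the X chromosome (chrX:53053112-53057191), had 9.34, 9.70 and 13.1 CPM. It was among the 3 steadiest CPCC members with a row sum of 100 or more, its highest library being 1.40 times its lowest. *2610307P16Rik*, which spans miR-6368, had 7.95, 7.03 and 11.7 CPM. *A330023F24Rik*, host of miR-29b-2 and miR-29c, stood lower at 1.29, 2.43 and 2.52 CPM. The other hosts were *5330434G04Rik* (miR-325; 1.39, 4.37 and 5.62 CPM), *A230057D06Rik* (a set of miR-344 genes; 1.19, 0.728 and 2.06 CPM) and *5430402O13Rik* (miR-6371; 1.09, 1.21 and 1.03 CPM). Thus the hosts spanned the range of the CPCC members, from the most abundant to one at the selection limit.

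Genes that have since been named formed a second group of CPCC members. RefSeq held 10 of the 125 under another current symbol, 7 of them protein-coding and 3, *3110039I08Rik* among them, lncRNAs. *1810041L15Rik* (*Shisal1*, a Shisa-like membrane protein) had 3.28, 19.6 and 44.9 CPM in S04, S05 and S06. *1500015O10Rik* (*Ecrg4*, which encodes a secreted peptide precursor) had 0.596, 7.28 and 14.2 CPM. Both were lowest in S04, and their highest-to-lowest ratios of 13.7 and 23.8 were the largest among the 30 CPCC members with a row sum of 100 or more. *A730017C20Rik* (*Minar2*) had 6.96, 15.3 and 16.2 CPM, again lowest in S04. In contrast, *9230110C19Rik* (*Cfap300*, a factor for the assembly of motile cilia) was highest in S04, with 13.0, 8.61 and 8.60 CPM. *4833427G06Rik* (*Hoatz*, another cilium gene) was nearly level at 2.98, 2.79 and 2.52 CPM. Of 36 CPCC members with a GENCODE coding sequence, *E430018J23Rik* was the 1 with C2H2 zinc fingers, 11 in 461 residues, at 3.78, 3.52 and 6.07 CPM, and 0 of 19 mESC members held them. *Gm8008* (*Zfp660*), named as a zinc finger gene but without a GENCODE match, had 1.79, 3.52 and 2.52 CPM. The remaining renamed members were the protein-coding *Gm1661* (*Armh1*; 0.895, 1.82 and 0.688 CPM) and the lncRNAs *Gm15674* (*Cd55os*; 5.67, 4.12 and 2.87 CPM) and *5730422E09Rik* (*Mm2pr*; 1.29, 0.728 and 1.26 CPM).

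The other members among the 10 most abundant on the CPCC side were mostly noncoding or uncharacterised. *B630019K06Rik*, a transcribed pseudogene in RefSeq, had 12.4, 22.6 and 13.6 CPM. The lncRNA *Gm6093* had 17.99, 12.1 and 15.7 CPM, and the protein-coding *9330159F19Rik* had 17.4, 10.7 and 10.8 CPM. The lncRNA *4933412E12Rik* had 15.01, 12.4 and 6.65 CPM. After *3110039I08Rik* the CPCC members fell off quickly: the median of the 125 was 2.08 CPM and the median bound over 3 counts per mESC library was 4.64. Bounded at 10-fold or more were 25 of 125 (20%), against 48.2% of the named genes listed in the CPCC table alone with the same row sum. Summed over members, the CPCC libraries held 649.9, 564.0 and 604.3 CPM, and 403.3, 410.2 and 428.2 CPM without *3110039I08Rik*.

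**Figure D1:**
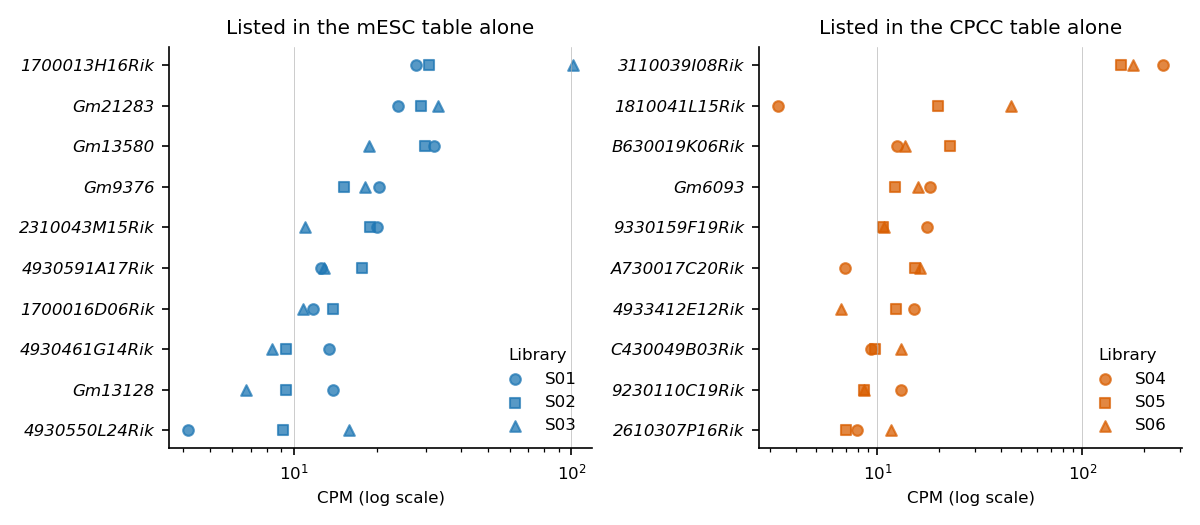
CPM of the 10 most abundant members of each table (log axis), with 1 symbol per library, for mESCs at left and CPCCs at right. *1700013H16Rik* stood higher in S03 than in S01 and S02, *1810041L15Rik* was lowest in S04, and *3110039I08Rik* exceeded every other CPCC member plotted.

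In mESCs, the most abundant member was *1700013H16Rik*, a protein-coding gene on the X chromosome (chrX:53742901-53757832). It had 27.7, 30.6 and 101.2 CPM in S01, S02 and S03, and its mean of 53.2 ± 41.6 CPM (SD, n = 3) was at least 158.5-fold higher than 3 counts per CPCC library. S03 alone was high. *4930502E18Rik* (*Ct55*, named as a cancer/testis antigen) lies on the opposite strand, with 4.68 kb between the genes, and had 1.54, 1.77 and 6.58 CPM, also high in S03. *4930550L24Rik*, at 58.9 Mb of the same chromosome, had 4.17, 9.12 and 15.8 CPM, again highest in S03. The 5 X-linked mESC members together held 38.2, 45.7 and 130.8 CPM, whereas the 47 autosomal members held 277.6, 286.0 and 263.5 CPM. The other X-linked members were *Gm364* (2.16, 1.32 and 4.39 CPM) and *E530001F21Rik*, which was level at 2.67, 2.94 and 2.78 CPM. The higher member sum of S03 thus lay mostly in *1700013H16Rik*. Without this gene all mESC members summed to 288.1, 301.1 and 293.0 CPM. The autosomal sum of S03 was the lowest of the 3.

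The promoters of the X-linked pair are shown because both genes were highest in S03. They run from 250 bases before to 50 after the RefSeq start (GRCm38.p6, chrX:53757782-53758081 on the minus strand and chrX:53724581-53724880 on the plus strand), with CpG dinucleotides in capitals.
1700013H16Rik: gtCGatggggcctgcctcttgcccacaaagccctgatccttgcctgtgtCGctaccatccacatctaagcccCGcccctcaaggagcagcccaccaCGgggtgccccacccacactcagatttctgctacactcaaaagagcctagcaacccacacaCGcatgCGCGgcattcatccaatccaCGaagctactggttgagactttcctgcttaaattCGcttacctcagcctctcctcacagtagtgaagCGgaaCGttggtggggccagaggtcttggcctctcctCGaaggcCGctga
4930502E18Rik: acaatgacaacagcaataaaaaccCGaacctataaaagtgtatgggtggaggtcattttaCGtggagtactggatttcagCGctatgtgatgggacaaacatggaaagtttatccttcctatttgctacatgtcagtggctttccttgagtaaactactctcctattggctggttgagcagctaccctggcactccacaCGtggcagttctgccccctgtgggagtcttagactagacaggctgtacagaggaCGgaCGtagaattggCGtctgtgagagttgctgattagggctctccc
The first holds 13 CpGs and the second 7. TATAAA, the TATA box searched on both strands, occurs in the window of *4930502E18Rik* and not in that of *1700013H16Rik*.

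The other abundant mESC members varied less. The lncRNA *Gm21283* had 23.8, 28.7 and 33.1 CPM, and *Gm13580* had 32.1, 29.7 and 18.7 CPM. *Gm9376* had 20.2, 15.2 and 17.99 CPM, with values that are not whole in 2 libraries. Among 20 mESC members with a row sum of 100 or more, the lncRNA *C330004P14Rik* was the steadiest at 8.34, 7.94 and 7.46 CPM. Per kilobase of exon, *Gm13580* was the most abundant mESC member at 47.4 CPM, followed by *1700013H16Rik* at 43.4 CPM. The mESC members of the *Pramel* family, whose genes are known from germ cells and early embryos, were *Gm13128* (*Pramel30*; 13.9, 9.41 and 6.73 CPM) and *B020004J07Rik* (*Pramel17*; 5.87, 5.88 and 8.63 CPM). Of their 6 values, that of *Gm13128* in S02 is not whole, and whether reads were shared with related copies was not tested. The germ cell and 2-cell-like markers summed to between 225.5 and 345.5 CPM in mESCs, highest in S03, against between 5.86 and 23.4 CPM in CPCCs, and their part was not tested.

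Across the mESC side the median level was 3.38 CPM and the median bound over 3 counts per CPCC library was 10.1. Bounded at 10-fold or more were 27 of 52 members (51.9%), against 47.6% of the named genes listed in the mESC table alone with the same row sum. Summed over members the mESC libraries held 315.8, 331.7 and 394.2 CPM, and 288.1, 301.1 and 293.0 CPM without *1700013H16Rik*. Members took between 0.0317% and 0.0390% of the counts of an mESC library and between 0.0547% and 0.0623% of those of a CPCC library. These genes were thus a small part of the RNA of either cell type.

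Agreement between libraries was uneven on both sides. The highest library exceeded the lowest by over 3 times, or the lowest was at 0, in 17 of 52 mESC members and 43 of 125 CPCC members. Among named genes of one table alone with the same row sum, this held for 73 of 292 (mESC) and 607 of 1363 (CPCC). The share was thus larger in mESC members, and smaller in CPCC members, than in these named genes. The highest library was S04 in 54 of the 125 CPCC members (43.2%), against 633 of the 1363 named genes (46.4%). The extreme was *5430427O19Rik*, chosen after its values were seen, which had 32 counts in S04 and 0 in S05 and S06. With S04 left out and a sum of 20 or more over S05 and S06, the CPCC table held 120 members. The listing of *5430427O19Rik* rests on S04, and a count of 0 allows up to 3 counts, here 0.364 and 0.344 CPM.

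**Figure D2:**
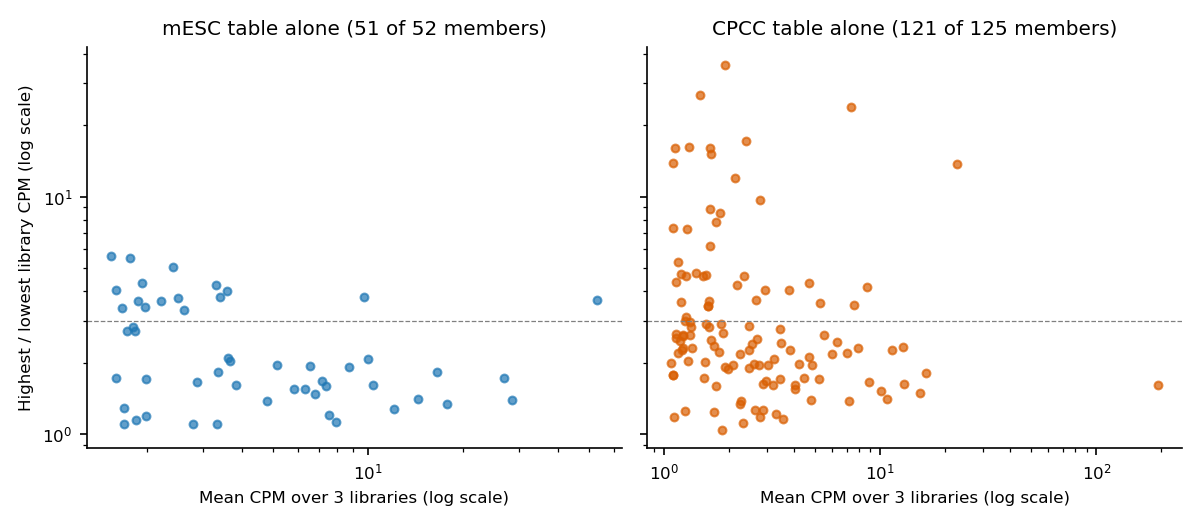
Ratio of the highest to the lowest library against mean CPM for each member (both axes log), 51 of 52 members of the mESC table at left and 121 of 125 of the CPCC table at right, leaving out those whose lowest library was under 0.5 counts. The dashed line marks a ratio of 3, and the ratios reached 5.63 in mESCs and 35.7 in CPCCs.

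The limit of 30 counts cut through a continuum. In mESCs, *2410004P03Rik* with a row sum of 31 and *Gm13016* and *Gm15290* with 32 were just inside, and *Gm10639* (28.7), *4732471J01Rik* (28.4) and *2610035F20Rik* (28) just outside. In CPCCs, *1700061I17Rik*, *5430402O13Rik* and *5730422E09Rik* had 30, while *4930562F07Rik* (29.5), *Gm4070* (29.2) and *C130071C03Rik* (29) fell short. A further 89 unnamed genes of the mESC table alone and 213 of the CPCC table alone had row sums under 30.

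The gene types of the 2 sides differed from those of the named genes listed beside them. RefSeq held 30 of the 52 mESC members as lncRNAs, 19 as protein-coding and 3 as transcribed pseudogenes. For the CPCC members these numbers were 89, 30 and 6 of 125. Of the named genes of one table alone with the same row sum, 8 of 292 (mESC) and 22 of 1363 (CPCC) were lncRNAs. Unnamed genes made up 15.1% of the mESC genes of one table alone at this row sum and 8.40% of the CPCC genes, against 5.07% of genes in both tables.

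Position separated the sides further. The span of 57 of 125 CPCC members (45.6%) shared bases with another gene of the table, 44 of them on the opposite strand, compared with 9 of 52 mESC members (17.3%) and 11.7% of the named genes of the CPCC table alone. Head to head, with starts on opposite strands within 1 kb of each other, lay 37 CPCC members (29.6%), against 3 mESC members (5.77%), 3.45% of the named genes of the CPCC table alone and 3.08% of those of the mESC table alone. Examples of the partners were *Ltbp2* and *Plod2*, of the extracellular matrix and its enzymes, and the transcription factor genes *Irx2* and *Nr2f1*. Others, such as *Cycs* and *Rab3ip*, belong to neither class, and the classes of the partners were not counted. The strand setting of the counting is not given in the sources used here, so the reads of a member and of an overlapping gene cannot be told apart where they share exons. Values that are not whole, as arise when a read is shared out among genes, occurred in 28 of the 57 overlapping CPCC members and in 1 of the 68 others. In mESC members the shares were close, with 1 of 9 overlapping members and 4 of 43 others. Named genes listed in CPCCs alone with the same row sum had such values in 66 of 159 overlapping genes and 64 of 1204 others. For those listed in mESCs alone the numbers were 19 of 30 and 12 of 262.

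The starts differed in base composition as well. A RefSeq promoter window was found for 144 of the 177 members. CpG observed over expected, the number of CpGs relative to that expected from the C and G content, exceeded 0.6 in 24 of 31 windows of head-to-head CPCC members (77.4%), in 19 of 72 of the other CPCC members (26.4%) and in 3 of 41 of the mESC members (7.32%). The share was 65.5% over all listed genes, 36.3% over the named genes of the CPCC table alone and 15.7% over those of the mESC table alone. The GC box GGGCGG, on either strand, occurred in 24 of 31, 22 of 72 and 12 of 41 windows in the same order (77.4%, 30.6% and 29.3%). Its share was 60.7% over all listed genes and 35.9% over all promoters in the RefSeq table. Over the named genes of the CPCC table alone it was 44.9%, and over those of the mESC table alone 30.9%. TATAAA occurred in 0 of 31, 9 of 72 (12.5%) and 7 of 41 windows (17.1%), against 8.08% of all listed genes and 14.2% of all promoters. In the named genes of one table alone the share was 12.4% for CPCCs and 16.1% for mESCs.

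**Figure D3:**
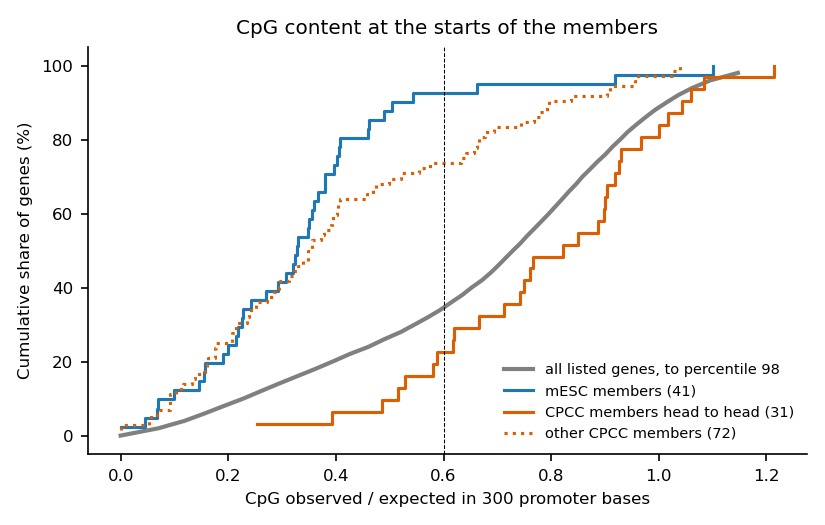
Cumulative share of genes (y axis, %) against CpG observed over expected in the 300-base promoter window (x axis). Head-to-head CPCC members lay to the right, with 77.4% past the dashed line at 0.6, and mESC members to the left with 7.32%, on either side of all listed genes (grey, 65.5%).

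*1810062G17Rik* and *4933412E12Rik* are shown as examples of such starts, again with CpGs in capitals (chr3:36475687-36475986 and chr10:116950312-116950611, both on the plus strand, GRCm38.p6).
1810062G17Rik: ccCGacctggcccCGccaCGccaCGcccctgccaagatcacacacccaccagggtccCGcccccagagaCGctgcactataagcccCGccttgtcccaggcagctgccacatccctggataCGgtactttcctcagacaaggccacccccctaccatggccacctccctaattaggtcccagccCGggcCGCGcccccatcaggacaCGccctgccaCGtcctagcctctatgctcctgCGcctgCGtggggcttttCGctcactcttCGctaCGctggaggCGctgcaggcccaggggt
4933412E12Rik: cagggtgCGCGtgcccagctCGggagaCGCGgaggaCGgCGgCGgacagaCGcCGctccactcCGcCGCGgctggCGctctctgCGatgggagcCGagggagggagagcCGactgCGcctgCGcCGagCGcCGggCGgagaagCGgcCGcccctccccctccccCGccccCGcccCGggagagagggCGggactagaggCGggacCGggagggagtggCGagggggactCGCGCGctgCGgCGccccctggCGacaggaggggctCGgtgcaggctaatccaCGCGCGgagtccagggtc
They hold 19 and 42 CpGs. *1810062G17Rik* starts 50 bases from *Anxa5*, an annexin gene, and this window also holds the start of *Anxa5*. *4933412E12Rik* starts 182 bases from *Rab3ip*, which encodes an exchange factor for Rab proteins. The window held the partner's start in 13 of 31 head-to-head CPCC members.

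Neighbouring genes, which the selection did not use, were then compared between the cell types. The nearest gene within 50 kb that passed the filter of edgeR's quasi-likelihood test was taken for each member, where there was one. Among all 12471 genes tested, 31.7% were higher and 29.7% lower in CPCCs at a Benjamini-Hochberg adjusted p under 0.05. Of the 90 neighbours of CPCC members, 56 (62.2%) were higher in CPCCs and 6 (6.67%) lower, with a median log2 fold change of 1.37 against 0.03 for all genes. The median of the neighbours of named genes of the CPCC table alone was 0.37, with 301 of 750 higher. The 37 neighbours of mESC members went the other way, with 7 (18.9%) higher and 19 (51.4%) lower in CPCCs and a median of -0.53. For the named genes of the mESC table alone these values were 39 and 102 of 226, with a median of -0.60. Thus the neighbours of members on either side were more often called towards the cell type of the member than genes at large, as were those of named genes.

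**Figure D4:**
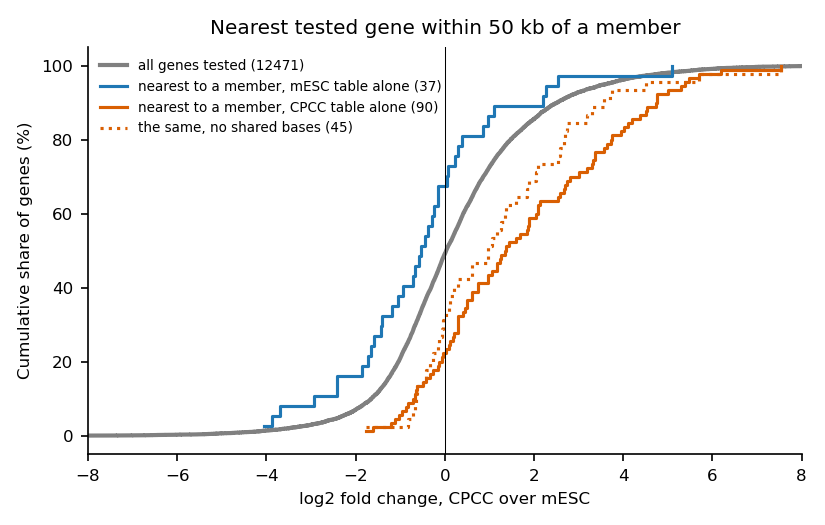
Cumulative share of genes (y axis, %) against log2 fold change of CPCCs over mESCs (x axis) for all 12471 genes tested, the neighbours of members of each table and, dotted, the 45 CPCC neighbours that share no bases with a member. The axis ends at 8 on both sides. The CPCC curve lies to the right (median 1.37) and the mESC curve to the left (median -0.53) of all genes (0.03).

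Shared bases moved with this result. Of the 45 CPCC neighbours that overlapped their member, 33 were higher in CPCCs and 3 lower, with a median log2 fold change of 2.09. Of the 45 that did not overlap, 23 (51.1%) were higher and 3 (6.67%) lower, with a median of 0.98. When overlapping genes were left out and the next gene was taken, 31 were higher and 8 lower, with a median of 0.60. Without S04, which stood apart, 54 neighbours of CPCC members were higher and 7 lower (median 1.37). All 6 overlapping mESC neighbours were lower in CPCCs, while the 31 others had 7 higher and 13 lower and a median of -0.29.

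The largest rise beside a CPCC member was that of *Anxa5*, from 2.32, 3.53 and 3.51 CPM in mESCs to 796.0, 603.5 and 346.2 CPM in CPCCs (log2 fold change 7.53, SE 0.39, adjusted p = 1.90e-06 from edgeR). The groups did not overlap, as for every other neighbour named here as higher or lower. *1810062G17Rik* itself had 2.39, 3.27 and 1.72 CPM in CPCCs, far below its partner. *App*, which encodes the amyloid precursor protein and contains *Gm10791* on its opposite strand, rose by a log2 fold change of 6.19 (SE 0.53, adjusted p = 1.81e-05). *Fzd2*, a Wnt receptor gene 11.4 kb from *2810433D01Rik*, rose by 5.69 (SE 0.33, adjusted p = 2.94e-06). *Cpq* and *Eml1*, which overlap *4930592A05Rik* and *Gm16596*, rose by 5.47 and 5.39. The members themselves were low, *Gm10791* with 22, 13 and 4 counts and *2810433D01Rik* with 23, 4 and 7.

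A few CPCC members lay beside, or overlapped, genes that were called lower in CPCCs. *Abtb1*, whose start is 919 bases from that of *Gm15612*, fell by 1.77 on the log2 scale (SE 0.21, adjusted p = 0.000108), from 55.5, 62.7 and 45.8 CPM to 14.6, 16.7 and 16.7 CPM. *Gm15612* had 5.11, 10.97 and 5.02 CPM in CPCCs and lies wholly within *Podxl2*, which the CPCC table alone lists. Further falls were those of *Gm8615* (log2 fold change -1.12), *Usp54* (-0.97) and *Setdb2* (-0.88), which overlap *5730422E09Rik*, *1810062O18Rik* and *Gm45935* in that order. *Cycs*, the gene of cytochrome c, fell beside *5430402O13Rik* (-0.82) without overlap. *Cycs* starts 169 bases from its member. The smallest fall past the threshold was that of *Hprt*, a purine salvage gene 31.5 kb from the miRNA host *C430049B03Rik*. *Hprt* went from 346.0, 351.3 and 427.5 CPM to 297.4, 201.9 and 211.1 CPM (log2 fold change -0.66, SE 0.19, adjusted p = 0.0147 from edgeR).

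Among head-to-head partners on the CPCC side, 32 of 37 could be tested. Of these, 22 (68.8%) were higher and 3 (9.38%) lower in CPCCs, with a median log2 fold change of 1.49. Over all genes tested, 31.7% were higher and 29.7% lower. Of 19 such partners of named genes of the CPCC table alone, 10 were higher and 5 lower, with a median of 1.27. Shared bases moved with the result for the partners of members as well. The 13 tested partners that shared bases with the member were all higher (median 2.81), whereas of the 19 that shared none, 9 were higher and 3 lower (median 0.29). *Plod2*, a collagen lysyl hydroxylase gene which shares 647 bases with *B430319G15Rik*, rose by 4.11 on the log2 scale (SE 0.44, adjusted p = 6.70e-05 from edgeR). *Ltbp2*, which shares 694 bases with *D030025P21Rik*, rose by 5.005 (SE 0.46, adjusted p = 2.77e-05 from edgeR). *Irx2*, 233 bases from the start of *Gm20554* and not overlapping, rose by 1.38 (SE 0.35, adjusted p = 0.00811). *Rab3ip* stood at 87.6, 105.5 and 99.9 CPM across mESC libraries and at 121.2, 82.7 and 78.8 CPM across CPCC libraries, groups that overlap (log2 fold change -0.05, SE 0.21, adjusted p = 0.843), although its partner *4933412E12Rik* was listed in CPCCs alone. A further 4 partners, *Nr2f1*, *Negr1*, *Rab20* and *Cd55b*, were themselves in the CPCC table alone.

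Beside mESC members, the largest fall was that of *Impa2*, an inositol monophosphatase gene 2.37 kb from *B430212C06Rik*, from 375.2, 384.5 and 377.8 CPM in mESCs to 7.75, 28.9 and 32.2 CPM in CPCCs (log2 fold change -4.05, SE 0.46, adjusted p = 8.69e-05 from edgeR). *B430212C06Rik* had 5.10, 2.50 and 3.36 CPM in mESCs and starts head to head with *Cidea*, a lipid droplet gene of the mESC table alone. *Chchd10*, a mitochondrial protein gene that shares 28 bases with *Gm867*, fell by 3.87 (SE 0.24, adjusted p = 4.04e-06). *Tdrp*, 11.3 kb from *Gm5907*, fell by 3.70 (SE 0.25, adjusted p = 5.93e-06). *Hydin*, a cilium gene that contains *Gm21283* on its opposite strand, fell by 2.93 (SE 0.69, adjusted p = 0.00513), and stood at 3.40, 2.65 and 3.51 CPM in mESCs, below its member. *Psors1c2*, 32.8 kb from *2300002M23Rik*, fell by 2.42 (SE 0.79, adjusted p = 0.0240).

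Other neighbours of mESC members rose. The largest rises were those of *Magee1* (40.4 kb from *E530001F21Rik*, log2 fold change 5.10), *Rbmx* (16.1 kb from *Gm364*, 2.54), *Akap2* (11.4 kb from *D630039A03Rik*, 2.27), *Sox21* (30.1 kb from *Gm9376*, 2.20) and *Pqlc3* (4.84 kb from *2410004P03Rik*, 1.11). Of the neighbours within 10 kb of mESC members, 3 were higher and 8 lower in CPCCs. *Sox21*, a SOX transcription factor gene, stood at 2.63, 4.50 and 4.83 CPM in S01 to S03 and at 6.78, 23.4 and 25.6 CPM in S04 to S06, with S04 the lowest CPCC library.

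Members rarely lay next to each other. Within 50 kb on one side there were the X-linked pair above, *Gm16897* with *A330023F24Rik* on chromosome 1, and *Gm3317* with *Gm3488* on chromosome 14. The last 2 have the same coordinates and identical values of 8.5, 8.5 and 25.5 counts in the CPCC table, so they cannot be told apart. When every listed gene was considered, the gene nearest to a member was itself in the CPCC table alone for 24 of 110 CPCC members (21.8%) and in the mESC table alone for 6 of 42 mESC members (14.3%), against 30.7% and 21.1% for named genes. Genes of the CPCC table alone were 15.5% and of the mESC table alone 4.67% of all listed genes. *Prkg1*, which contains *8430431K14Rik*, was the most abundant such neighbour at 91.4 CPM. *8430431K14Rik* had 7.46, 4.85 and 1.72 CPM.

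Unnamed genes that both tables list give the comparison that the members cannot. Of 659 such genes, 550 passed the filter, and 114 (20.7%) were higher and 150 (27.3%) lower in CPCCs, with a median log2 fold change of -0.02. Over all genes tested these shares were 31.7% and 29.7%. The 265 protein-coding genes among the 550 had 56 higher and 81 lower, with a median of -0.12. The 216 lncRNAs had 50 higher and 45 lower, with a median of 0.24. The 66 transcribed pseudogenes had 7 higher and 23 lower, with a median of -0.63. The largest rises were those of *Gm14005*, now *Morrbid*, a lncRNA, and of the protein-coding *6330403K07Rik*. The mESC libraries held 0.618, 1.47 and 0.293 CPM of *Gm14005* and the CPCC libraries 80.9, 46.7 and 44.5 CPM (log2 fold change 6.15, SE 0.49, adjusted p = 1.28e-05 from edgeR). For *6330403K07Rik* the values were 0.618, 3.53 and 0.293 CPM in S01 to S03 against 71.5, 138.7 and 102.1 CPM in S04 to S06 (log2 fold change 6.11, SE 0.62, adjusted p = 4.93e-05). They were followed by *Gm15910* (4.07), *A430105I19Rik* (*Ccdc9b*, 4.02) and *Gm1976* (3.76).

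The largest fall was that of the transcribed pseudogene *2210409E12Rik*, from 294.9, 315.0 and 242.2 CPM in mESCs to 0.0994, 2.30 and 1.03 CPM in CPCCs (log2 fold change -7.998, SE 0.56, adjusted p = 7.00e-06 from edgeR). *C130073F10Rik* (-7.12), *9630028I04Rik* (-5.32), *Gm6083* (-5.14) and *4933438K21Rik* (-4.96) followed. *Gm6083*, also a transcribed pseudogene, was the most abundant of the 10 genes named here from both tables, with 1728, 1756 and 1423 CPM in S01 to S03 against 11.6, 54.7 and 73.5 CPM in S04 to S06. Its mESC level exceeded the summed level of all 52 mESC members in each mESC library.

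**Figure D5:**
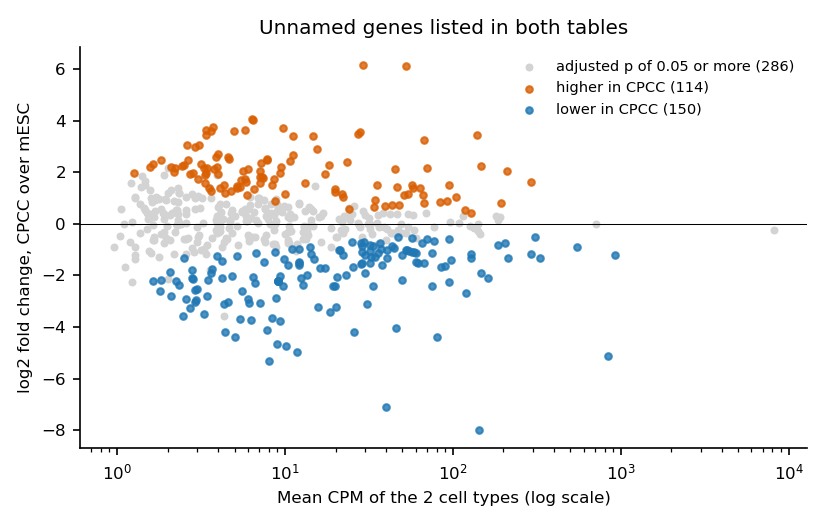
Log2 fold change of CPCCs over mESCs (y axis) against the mean CPM of the cell types (x axis, log) for the 550 unnamed genes of both tables that were tested. The 114 higher in CPCCs are orange, the 150 lower in CPCCs blue and the others grey, and the extremes are 6.15 and -7.998.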

How the data were processed

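Bulk RNA-seq of 3 mESC and 3 CPCC libraries was made from polyadenylated RNA with the SMART-Seq v4 kit. The authors deposited estimated counts per gene, not normalized, in 1 table per cell type, each listing genes with a row sum of at least 10. The submitters' processing notes name STAR 2.7 and mm10, while the counter, its annotation and its use of strand are not given for the bulk libraries. For its single-cell libraries the paper names STAR within Partek Flow and a numbered GRCm38 release. Gene ends in the tables are mostly 1 base past the last. Columns were assigned to a cell type by the name of the table and carry no replicate numbers.

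Members and gene lists were chosen with earlier results of these data known. Members were described without a test, with bounds against 3 counts per library (0.298 to 0.463 CPM), which cover counting error only. Rounded counts of the 13001 genes in both tables were tested with edgeR 4.0.16 in R 4.3.3 (glmQLFit, TMM, filterByExpr, adjusted p under 0.05), leaving 12471. The study's methods use DESeq2, run here as version 1.42.0. The fits were tested on simulated counts. The clone of each column is not stated, and p-values measure the spread between libraries. Gene types and sequences came from RefSeq (GRCm38.p6), exons from GENCODE M21.

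Genes named were, per table, the 10 most abundant members, those at the limit of 30, those with the highest and lowest library ratio, renamed members, zinc finger members, members within 50 kb of each other and those beside the 5 largest rises and falls, plus the 5 largest changes among unnamed genes of both tables. Others, such as miRNA hosts and head-to-head genes, were chosen after their values were seen. Alternatives were other normalizations and filters, other row sums and distances, overlap, and leaving out each library.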

Additional observations from a re-analysis of the deposited data

How the results depend on the processing

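No paired analysis was possible because the columns carry no replicate numbers. With a row sum of 60 or more, 29 mESC and 62 CPCC members were left, and the median bounds were 21.3 and 8.19. With 20 or more, the CPCC table gave 195 members. Members that overlap no gene of the table numbered 68 in CPCCs, with summed levels of 282.5 CPM in mESCs and 459.6 CPM in CPCCs against 347.2 and 606.0 CPM. Without the most abundant member the sums were 294.1 and 413.9 CPM. With library totals and no TMM, the median CPCC bound was 4.29.

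For neighbours of mESC members, the counts higher and lower in CPCCs were 3 and 8 within 10 kb, and 2 and 10 for members with a row sum of 60 or more (median log2 fold change -0.83), while 12 were higher within 200 kb. For neighbours of CPCC members, 31 were higher with overlapping genes left out (median 0.60) and 30 with a row sum of 60 or more (2 lower, median 1.87). The number lower was 10 by DESeq2, 11 within 200 kb and between 2 and 8 when 1 library was left out, 2 without S05 and 3 without S03. Their median was 1.77 within 10 kb and 0.67 at a minimum of 10 counts per sample. For head-to-head partners of CPCC members, 5 were lower by DESeq2, 9 higher among partners that overlap no member (median 0.29), and the median was 1.20 at that minimum. The cause of these differences was not tested, beyond fewer members or genes where the setting leaves some out. No alternative turned the sign of a median. Leaving out 1 library gave between 54 and 56 mESC members and between 120 and 133 CPCC members at 20 counts over the other 2. Members near the limit rest on few counts.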
